A study of Mus musculus with 12 samples.

Results

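Accessible regions that lie inside very long genes, and not at a gene start or end, are described here. They were taken from the merged ATAC-seq peak lists of the series and kept where the whole region lay inside a protein-coding gene of 200 kb or more and its midpoint was over 1000 bases from every protein-coding gene start and end. Of 16028 merged regions, 952 met this rule, in 452 of the 989 protein-coding genes of that length. They are called inner regions below, and 845 of the 952 had a midpoint over 10000 bases from every such start and end.

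The cells were ER-Hoxa9-Lys-GFP cells of C57BL/6 origin, cultured myeloid progenitors whose Hoxa9 is joined to an estrogen receptor part and so depends on estradiol (E2) to keep them immature. They also carry a GFP reporter of lysozyme. All groups carried the fusion and the reporter and grew in medium conditioned with SCF, and the labels give no parental line without them. The 6 groups of 2 libraries each were continuous E2, withdrawal for 24 h and then 96 h of add-back, 40 h and then 80 h, 56 h and then 64 h, 72 h and then 48 h, and 120 h without E2. Add-back lists are named below by their hours of withdrawal. The hours of withdrawal and add-back add up to the same total, so their effects cannot be told apart. Nuclei of a preparation were divided between transposition reactions, so the 2 libraries of a group may be technical repeats, and 1 peak list was deposited for both.

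Long genes keep most of their length in introns, which are known to hold enhancers and also further transcription starts that give shorter isoforms. ATAC-seq marks DNA that the Tn5 transposase can reach, which includes promoters and enhancers. In myeloid cells many lineage enhancers lie in introns, and Hoxa9 is known to bind mainly at such distal sites. A listed start marks an annotated promoter, so inner regions with and without one are separated below wherever the annotation allows it. The split is by annotation, and whether a region acts as an enhancer was not tested.

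The lists held only the position of each peak. Depth was therefore unknown and no value per library existed, so no test between samples could be made. Intervals are 95% Wilson intervals for shares and Newcombe intervals for differences, and they cover counting error over regions only. Regions of the same gene are not independent, which makes the intervals too narrow. The list of continuous E2 held 13165 peaks once cleaned. There were 11465, 9940, 8989 and 9581 after 24, 40, 56 and 72 h with add-back, and 7987 at 120 h. A shorter list by itself loses regions, and its part in the losses below was not tested.

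Much of what follows turns on whether an inner region held a transcription start. The promoter sequences of 8 such starts are shown first, from RefSeq on GRCm38.p6. Each runs 5′ to 3′ on the strand of its transcript, from 250 bases before the start to 50 bases after it, with every CG dinucleotide in capitals. The first 3 lie in regions called in all 6 lists.
Prkag2 (chr5:24908460-24908759, minus strand): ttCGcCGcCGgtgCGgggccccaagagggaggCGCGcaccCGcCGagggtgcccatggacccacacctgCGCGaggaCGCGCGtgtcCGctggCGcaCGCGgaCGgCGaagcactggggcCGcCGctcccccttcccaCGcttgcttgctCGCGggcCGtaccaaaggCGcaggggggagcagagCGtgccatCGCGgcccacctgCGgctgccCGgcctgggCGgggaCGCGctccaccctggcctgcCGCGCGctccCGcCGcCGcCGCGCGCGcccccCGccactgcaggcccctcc
Camk2d (chr3:126596701-126597000, plus strand): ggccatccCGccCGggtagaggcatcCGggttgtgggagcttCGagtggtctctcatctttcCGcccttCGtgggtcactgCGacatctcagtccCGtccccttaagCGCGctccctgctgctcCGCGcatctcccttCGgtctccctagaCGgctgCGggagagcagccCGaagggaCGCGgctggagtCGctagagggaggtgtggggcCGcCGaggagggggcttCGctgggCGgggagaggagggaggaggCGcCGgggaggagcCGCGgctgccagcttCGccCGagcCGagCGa
Chst11 (chr10:82985247-82985546, plus strand): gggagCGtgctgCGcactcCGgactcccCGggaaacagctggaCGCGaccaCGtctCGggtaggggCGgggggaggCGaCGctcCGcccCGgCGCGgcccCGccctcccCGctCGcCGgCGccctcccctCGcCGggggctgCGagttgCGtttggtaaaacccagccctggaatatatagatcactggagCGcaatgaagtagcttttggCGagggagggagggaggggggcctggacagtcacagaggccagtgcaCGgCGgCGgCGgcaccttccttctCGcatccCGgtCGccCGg
The next 3 lie in regions that were gone from the 40 h list on, or already from the 24 h list on in the case of Rbms3.
Baz2b (chr2:60125691-60125990, minus strand): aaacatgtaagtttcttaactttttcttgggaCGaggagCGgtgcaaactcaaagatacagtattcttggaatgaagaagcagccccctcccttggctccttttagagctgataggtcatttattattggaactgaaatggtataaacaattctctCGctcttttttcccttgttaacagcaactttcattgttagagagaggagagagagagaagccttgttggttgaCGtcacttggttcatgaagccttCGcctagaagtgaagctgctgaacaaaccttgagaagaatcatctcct
Ankrd44 (chr1:54926338-54926637, minus strand): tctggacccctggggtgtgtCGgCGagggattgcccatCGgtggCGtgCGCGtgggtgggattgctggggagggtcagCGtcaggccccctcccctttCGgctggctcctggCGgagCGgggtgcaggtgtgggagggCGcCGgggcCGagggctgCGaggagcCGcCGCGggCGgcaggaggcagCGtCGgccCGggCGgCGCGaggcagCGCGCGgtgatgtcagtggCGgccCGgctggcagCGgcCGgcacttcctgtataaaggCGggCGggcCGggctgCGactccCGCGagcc
Rbms3 (chr9:117252434-117252733, minus strand): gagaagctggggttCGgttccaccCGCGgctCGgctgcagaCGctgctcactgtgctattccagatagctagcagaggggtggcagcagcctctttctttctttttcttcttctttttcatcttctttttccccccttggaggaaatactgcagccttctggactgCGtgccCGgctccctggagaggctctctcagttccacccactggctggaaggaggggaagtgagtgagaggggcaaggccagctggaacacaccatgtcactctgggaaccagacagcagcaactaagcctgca
The last 2 are the single start in a gained region, that of Ssh2, and the start of Kcnq1ot1, a long non-coding RNA that is read against the strand of its host gene Kcnq1. All 8 were chosen with their calls known. Those other than Kcnq1ot1 are starts of the host gene itself, from hosts with many inner regions.
Ssh2 (chr11:77348030-77348329, plus strand): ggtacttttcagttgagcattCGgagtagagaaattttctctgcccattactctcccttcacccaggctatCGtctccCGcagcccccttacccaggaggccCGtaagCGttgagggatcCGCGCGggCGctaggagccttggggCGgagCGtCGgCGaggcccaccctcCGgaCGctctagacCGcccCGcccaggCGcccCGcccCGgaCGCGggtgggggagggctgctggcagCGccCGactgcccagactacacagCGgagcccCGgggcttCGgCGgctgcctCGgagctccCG
Kcnq1ot1 (chr7:143296498-143296797, minus strand): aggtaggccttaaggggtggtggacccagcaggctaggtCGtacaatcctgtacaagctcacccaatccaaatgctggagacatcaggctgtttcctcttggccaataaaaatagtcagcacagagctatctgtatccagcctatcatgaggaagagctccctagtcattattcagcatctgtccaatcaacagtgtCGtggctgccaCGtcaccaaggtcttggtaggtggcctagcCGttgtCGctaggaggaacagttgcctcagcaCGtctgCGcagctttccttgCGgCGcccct
CG dinucleotides numbered 45, 31 and 34 in the windows of Prkag2, Camk2d and Chst11. In those of Baz2b, Ankrd44 and Rbms3 they numbered 5, 37 and 7, so the CG-rich window of Ankrd44 lay in a region that was lost. Ssh2 had 30 and Kcnq1ot1 had 9.

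Inner regions were mostly lost without E2. At 120 h 236 of them were called, against 757 in continuous E2. Of the 757, 607 were absent at 120 h, a share of 80.2% (77.2 to 82.9). Over all 13165 regions of continuous E2 that share was 50.6%, and at gene boundaries, taken as 1000 bases to either side, it was 28.9%. Of the 236 inner regions called at 120 h, 86 were absent in continuous E2, or 36.4% (30.6 to 42.8), where the share over all regions was 18.4%. Outside genes it was 40.7% (497 of 1222), so that the difference for inner regions was -4.23 points (-10.7 to 2.64), and in shorter genes 29.3% (367 of 1251), with inner regions 7.10 points higher (0.68 to 13.9). Regions called in continuous E2 and not at 120 h are termed lost, the opposite kind gained, and those called in both kept. Of the 952 inner regions, 607 were lost, 86 gained and 150 kept, and the other 109 were called in add-back lists alone. Across all 16028 regions of the series 41.6% were lost, 9.15% gained and 40.6% kept.

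The number of inner regions called was 757 in continuous E2, 551 at 24 h, 372 at 40 h, 261 at 56 h, 292 at 72 h and 236 at 120 h. They made up 5.75% of all regions called in continuous E2 (5.37 to 6.16), 4.81% at 24 h, 3.75% at 40 h, 2.91% at 56 h, 3.06% at 72 h and 2.96% at 120 h (2.61 to 3.36). So inner regions fell faster than the lists did up to 56 h, and their share stayed near 3% from then on. This was shared with other regions far from gene boundaries. Regions outside genes made up 22.4% in continuous E2, 14.0% at 56 h and 15.3% at 120 h. Those in shorter genes made up 21.2%, 14.9% and 15.7% in the same order, and those at gene boundaries 50.6%, 68.1% and 65.9%. Of the 452 host genes, 402 had an inner region called in continuous E2, 338 at 24 h, 269 at 40 h, 206 at 56 h, 227 at 72 h and 192 at 120 h. In 236 of the 402 no inner region was called at 120 h.

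Inner regions with a start behaved unlike those without. The RefSeq promoter table held 344 of the 452 host genes, and 727 inner regions lay in these. Of the 727, 68 held a listed start. Among regions called in continuous E2, 434 of 521 without a start were lost, or 83.3%, against 32 of 61 with a start, or 52.5%. The difference was 30.8 points (18.3 to 43.5). Calls in all 6 lists were found for 54 of 659 regions without a start, or 8.19% (6.33 to 10.5), and for 23 of 68 with a start, or 33.8% (23.7 to 45.7). Over all regions of the series 32.8% were called in every list.

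Regions without a start were also narrower, with a median width in continuous E2 of 649 bases, against 1066 with a start. Peak width is the single quantity the files give besides position. In the wider part of the regions, split at the median width, 194 of 238 without a start were lost and 26 of 53 with one, a difference of 32.5 points (18.3 to 46.1). The narrower part held only 8 regions with a start, of which 6 were lost, and allowed no comparison. Some starts lay close to the outer end of the gene, and with a limit of 10000 bases from gene boundaries in place of 1000 the difference was 24.4 points (9.44 to 40.8).

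The same split was seen in the most similar regions of the series. Inside shorter protein-coding genes, 80.1% of regions without a listed start were lost and 39.1% of those with one (difference 41.0 points, 36.8 to 45.1). Outside protein-coding genes 76.6% of regions without and 59.0% of those with a start were lost (17.6 points, 10.7 to 24.8). The split is therefore not particular to long genes.

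**Figure D1:**
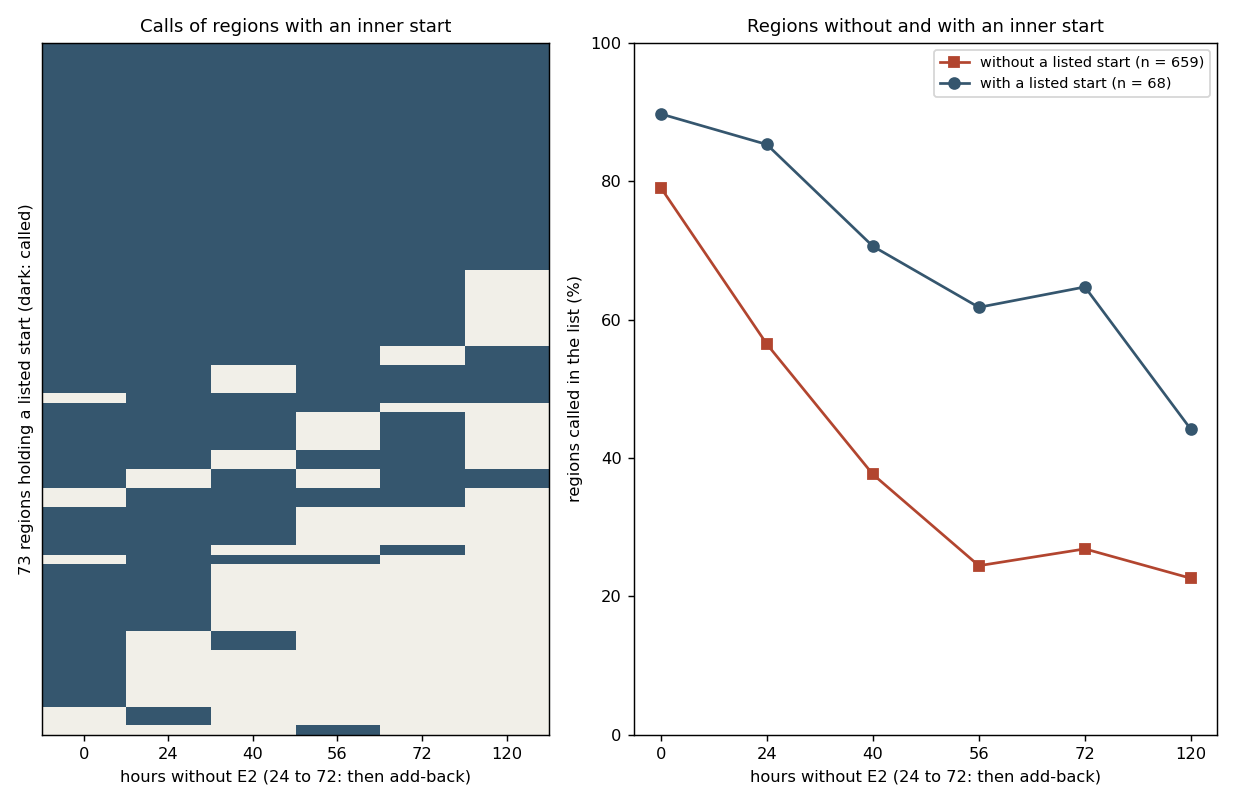
Left, calls of the 73 inner regions that hold a listed start, 1 row per region, by hours without E2, where dark means called. Right, the share of regions called in each list, for the 659 without and the 68 with a listed start in genes of the promoter table. The lists are spaced evenly on both x axes. Regions without a start stood at 22.6% at 120 h and at 79.1% in continuous E2, and those with one at 44.1% and 89.7%.

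Counting every host gene, 73 inner regions held 88 listed starts. Starts of the host gene itself were found in 56 of the regions, and in 17 the start was that of another gene alone. In at least 16 regions a start ran against the host gene, and in 5 more, that of Kcnq1 among them, the strand of the host was not in the table. Of the 16, 7 were kept, 7 lost and 2 called in add-back lists alone. The region at the start of Kcnq1ot1 (chr7:143296031-143296924) was 829 bases wide in continuous E2, 886 at 24 h, not called at 40 h, and 748, 607 and 338 bases wide at 56, 72 and 120 h. It was thus kept, with 1 missing call.

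Among kept regions with a start, that of Prkag2, a regulatory subunit of AMP-activated kinase, was 1260 bases wide in continuous E2, then 1229, 1000, 787 and 791 in the add-back lists, and 802 at 120 h (chr5:24908159-24909494). That of Stag1, a cohesin subunit, measured 1528, 1523, 1361, 1282, 1232 and 1221 bases in the same order. At Hdac4, a histone deacetylase, the widths were 1185, 1193, 983, 924, 1009 and 900 bases. All 3 regions were narrower at 120 h than in continuous E2 but were called throughout.

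Among lost regions with a start, that of Rbms3, an RNA-binding protein, was called in continuous E2 alone, 1239 bases wide (chr9:117251640-117252878). The start region of Baz2b, a bromodomain protein, was 1189 bases wide in continuous E2 and 1190 at 24 h, and was absent afterwards. In Fhit the widths were 1066, 992, 870, 688 and 651 bases up to 72 h, and the region was absent only at 120 h. Lost regions with a start therefore left at different steps. After 24, 40, 56 and 72 h of withdrawal, 25, 17, 10 and 14 of 32 lost regions with a start were called. Of 434 lost regions without a start, 247, 147, 69 and 53 were called, or 56.9%, 33.9%, 15.9% and 12.2%.

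Prkag2 held a second start region near its 5′ end (chr5:25100461-25101683). It was called in all 4 add-back lists, with widths of 1223, 920, 815 and 975 bases, and neither in continuous E2 nor at 120 h. The region at a start of Rsrc1 (chr3:66985415-66986292) had the same pattern, with 878, 625, 509 and 649 bases. The gained start region of Ssh2, a phosphatase that activates the actin-severing protein cofilin, was absent in continuous E2 and measured 691, 544, 382, 637 and 446 bases from 24 to 120 h (chr11:77347984-77348674). A further 2 inner regions of Ssh2 were gained and called at 72 and 120 h.

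CG content at the starts differed by class with wide overlap. The ratio of observed to expected CG dinucleotides in the 300-base window had a median of 0.61 at 35 lost starts, against 0.81 at 31 kept starts, counting 1 start per region. The ranges were 0.05 to 1.14 for lost and 0.23 to 1.17 for kept starts. Over all 32851 windows of the promoter table the median was 0.38. Starts in the 13 regions that were lost by the 40 h list had a median of 0.39, the 22 other lost ones 0.62 and the 24 called in all lists 0.83. A ratio above 0.6, a usual mark of CG islands, was found in 5 of the 13, 15 of the 22 and 19 of the 24. Over all windows of the promoter table the upper quartile was 0.75, so many of those also lay above 0.6. Their exact share was not counted, so the 5 of 13 cannot be set against it. The comparison of classes is a description of few windows, and no test was made.

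**Figure D2:**
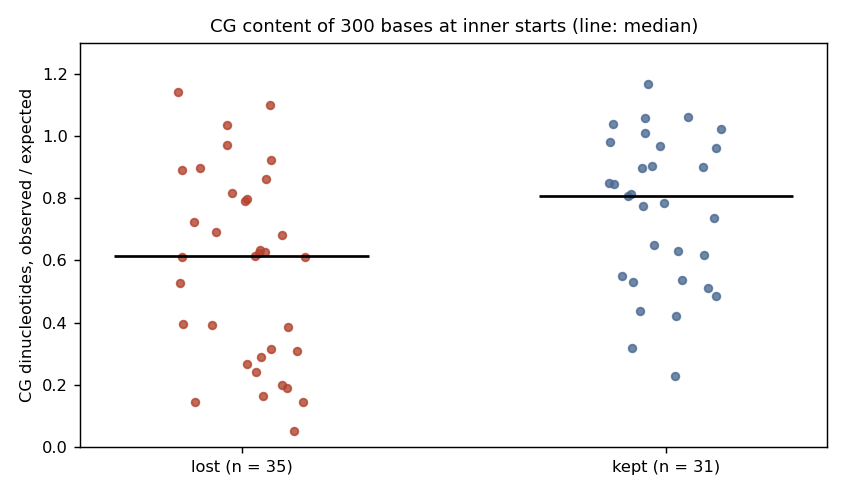
Ratio of observed to expected CG dinucleotides in the 300-base window at starts inside lost and kept inner regions, 1 point per region, with the median as a line. The medians were 0.61 for lost and 0.81 for kept starts, and the points overlap over most of the range.

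Short motifs were searched on both strands of the same windows, and some can share bases with each other, such as TGANTCA and TGATNNAT. The ETS core AGGAAGT, read by PU.1 among others, was in 7 of 35 windows at lost starts and 3 of 31 at kept starts, against 9.35% of all windows of the table. The RUNX core TGTGGT was also in 7 windows at lost and 3 at kept starts, against 16.8% of all windows. The E-box CACCTG was in 8 windows at lost and 2 at kept starts and the GATA core AGATAA in 3 at lost and 0 at kept ones, where 20.2% and 11.2% of all windows held them. Given in the same order, lost and then kept, the C/EBP core TTGCNNAA was in 3 and 3, the AP-1 core TGANTCA in 3 and 2, the MEIS core TGACAG in 3 and 4 and the HOX-TALE core TGATNNAT in 2 and 2. The shares over all windows were 10.8%, 7.81%, 19.2% and 8.85% for those 4. A match is a run of letters and not a bound site.

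Most inner regions held no listed start, and 30 genes had 5 or more inner regions each. These 30 genes held 183 of the 952 regions, while 191 genes held 1 each. Gse1, which encodes a partner of a histone demethylase complex, led with 11 inner regions, of which 6 were lost, 1 gained, 1 kept and 3 called in add-back lists alone. Prkag2 followed with 9, of which 6 were lost and 2 kept. Zfhx3, a zinc finger and homeobox factor, and Auts2, a Polycomb-associated protein, had 8 each. All 8 of Zfhx3 were lost, and of those of Auts2 7 were lost and 1 gained.

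**Figure D3:**
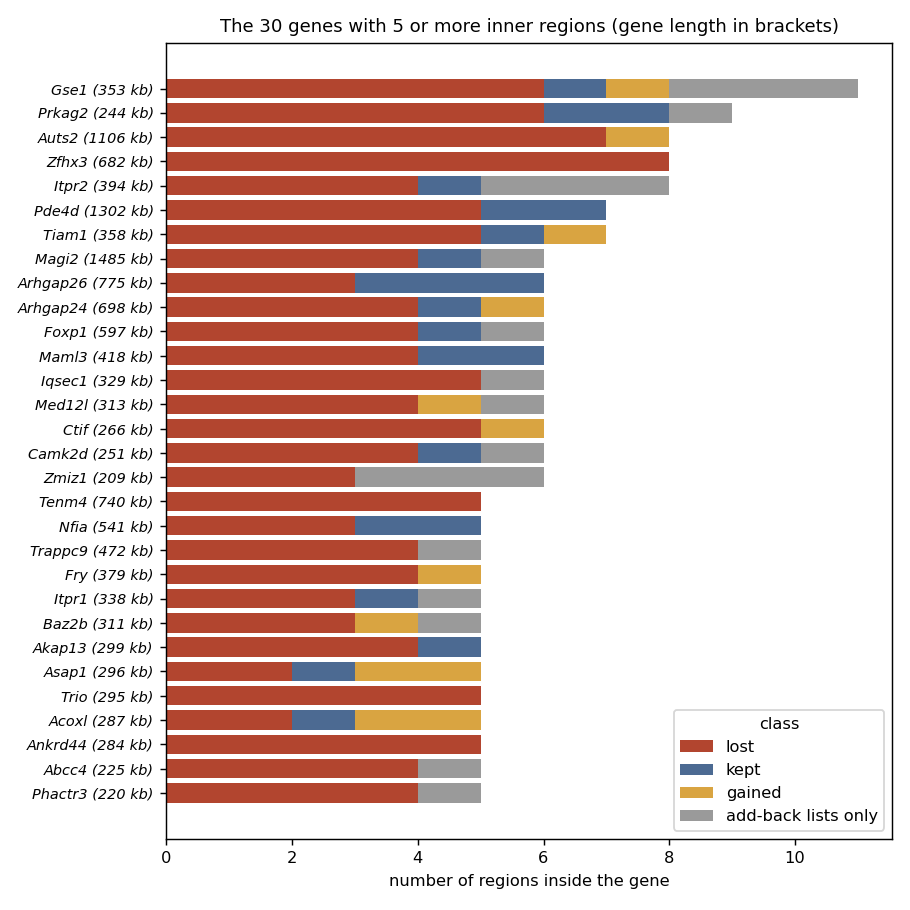
Number of inner regions in each of the 30 genes with 5 or more, by class, with the gene length in brackets. Lost was the most frequent class, ties included, in all 30. In Zfhx3, Tenm4, Trio and Ankrd44 every inner region was lost.

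The Zfhx3 regions were spread over more than 500 kb of its 682 kb and did not leave together. Those at chr8:108387000-108387782 and chr8:108822773-108823296 were called in continuous E2 alone, with widths of 783 and 524 bases. The region at chr8:108722766-108723854 was also called at 24 h, and that at chr8:108910930-108911755 up to 40 h. A pair of regions, at chr8:108611827-108612999 and chr8:108886749-108887532, was called up to 56 h. The region at chr8:108611827-108612999 was 1173, 1042, 569 and 525 bases wide in those lists. The region at chr8:108748807-108749660 was called in every list but that of 120 h, with 852, 683, 559, 603 and 544 bases. The last, which holds a listed start, was called in continuous E2 and at 24, 56 and 72 h.

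Among transcription factors and cofactors, Foxp1, a forkhead factor, had 6 inner regions, of which 4 were lost and 1 kept. The kept one narrowed from list to list, with 1017, 945, 736, 628, 502 and 391 bases (chr6:99388522-99389538). Nfia had 3 lost and 2 kept regions and Maml3, a coactivator of Notch signalling, 4 lost and 2 kept. Zmiz1, another coactivator, had 3 lost regions and 3 called in add-back lists alone. Runx1, a factor needed for blood formation, had 2 lost inner regions and the widest gained one of all. That region was 1002 bases wide and was called at 120 h alone (chr16:92714996-92715997), 111 kb from the nearest gene boundary. The lost region nearer the 5′ end of Runx1 measured 1285, 1261, 1047, 1049 and 1039 bases up to 72 h, and none was called there at 120 h (chr16:92800764-92802078).

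The list of chromatin regulators and RNA-binding proteins was smaller, with 41 inner regions over 24 long genes. Transcription factors and cofactors had 108 over 60. Baz2b had 3 lost and 1 gained, Chd9, a chromatin remodeler, and Rere, a corepressor, 3 lost and 1 kept each. All 4 inner regions of Rbms3 were lost. The widest kept region lay in Tnrc6b, which acts in silencing by microRNAs, and held a start. It was called in continuous E2, at 40, 72 and 120 h, and not at 24 or 56 h, with widths of 1827, 900, 350 and 327 bases. The next widest, at a start of Sgms1, a sphingomyelin synthase gene, measured 1769 bases over all lists and was missing at 40 h alone.

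Genes of kinase, phosphatase and second messenger signalling included Itpr2, a calcium channel of the endoplasmic reticulum, with 4 lost, 1 kept and 3 add-back regions. Pde4d, which degrades cyclic AMP, had 5 lost and 2 kept regions over 1302 kb. In Camk2d, a calmodulin-dependent kinase, 4 were lost and 1 kept. That kept region held a start and lay 1345 bases from the gene boundary, so it is close to the outer promoter. Akap13, an anchor of protein kinase A, had 4 lost regions and 1 kept, whose widths were 677, 541, 425, 265, 528 and 644 bases.

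Regulators of small GTPases and the cytoskeleton were also well covered. Tiam1, an activator of Rac, had 5 lost, 1 gained and 1 kept region. Trio, another activator of Rac, had 5 lost regions, 3 of them called in continuous E2 alone and 2 also at 24 h. Arhgap26, a GTPase-activating protein, had 3 lost and 3 kept, and Arhgap24, which turns Rac off, 4 lost, 1 gained and 1 kept. The widest lost region lay in Mical3, an actin-oxidising enzyme, with 2330 bases in continuous E2 and 1328 at 24 h (chr6:120955377-120957706). The widest kept region without a start was that of Arhgap10, another GTPase regulator, with 1743, 907, 708, 786, 600 and 470 bases (chr8:77483489-77485231). Asap1, a regulator of Arf GTPases, had 2 gained, 2 lost and 1 kept.

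In the list named adhesion molecules and surface receptors, all 5 inner regions of Tenm4, a teneurin, were lost by 40 h. Of these, 3 were called in continuous E2 alone. Atrnl1, an attractin-like membrane protein, differed, with 3 gained regions and 1 lost. Of its gained regions 1 was called at 72 and 120 h and 2 at 120 h alone. Abcc4, an exporter of cyclic nucleotides, had 4 lost regions and Slc9a9, an endosomal exchanger, 4. The cadherin gene Cdh23 had 2 gained regions and 1 lost. In the list named synaptic and ion channel genes, Dlgap2, Chrm3 and Syne1 had 3 lost regions each. The widest gained region after that of Runx1 lay in the potassium channel gene Kcnh1, absent in continuous E2 and at 24 h, with 900, 884, 904 and 727 bases from 40 to 120 h. The third, in Btbd9, measured 827, 677, 677, 787 and 719 bases from 24 to 120 h.

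Several genes with many regions belong to none of these lists. Magi2, a scaffold protein, had 4 lost and 1 kept region, Iqsec1, an activator of Arf6, 5 lost, and Med12l, a Mediator subunit, 4 lost and 1 gained. Ctif, a translation factor, had 5 lost and 1 gained. Acoxl had 2 gained, 2 lost and 1 kept. The second widest lost region lay in Trappc9, with 2142 bases in continuous E2 and no call in any other list.

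Gene groups differed in how many of their long genes held an inner region. The lists were written with earlier results of these data known, so the counts are descriptions. Of the long genes in each list, 31 of 43 blood cell regulators, 42 of 58 signalling genes and 17 of 24 chromatin and RNA-binding genes did. For GTPase and cytoskeleton genes it was 50 of 82 and for transcription factors 35 of 60. Of adhesion and surface genes 31 of 77 did, and of synaptic and channel genes 39 of 97, against 452 of all 989 long genes, or 45.7%. Per megabase of gene, blood cell regulators had 4.36 inner regions, signalling genes 4.22 and transcription factors 4.15. GTPase and chromatin genes had 3.43 and 3.36. Adhesion genes had 1.23 and synaptic genes 1.08, and all long genes together 2.25. Of long genes in no list 238 of 591 held an inner region, with 2.10 per megabase. The long genes of the adhesion and synaptic lists were also longer, with medians of 522 and 523 kb, against 339 to 386 kb in the 5 other lists.

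The lost share of regions called in continuous E2 lay closer together. It was 74.2% for blood cell regulators (46 of 62), 76.4% for signalling (68 of 89), 76.7% for chromatin and RNA-binding (23 of 30) and 76.9% for GTPase and cytoskeleton genes (83 of 108). For transcription factors it was 81.2% (69 of 85), for synaptic genes 81.1% (43 of 53) and for adhesion genes 84.0% (42 of 50). The interval of each list, such as 62.1 to 83.4 for blood cell regulators, included the 80.2% of all inner regions. The lists share genes and were written with earlier results of these data known, so these counts are descriptions.

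Very long genes held few regions for their size. Genes of 200 to 300 kb had 3.74 inner regions per megabase, those of 300 to 500 kb 2.70, those of 500 to 1000 kb 1.41 and longer ones 0.74. The 5 longest host genes, Cntnap2, Lsamp, Macrod2, Dlg2 and Csmd1, held 1 or 2 each. Genes above 500 kb lost 85.9% of their inner regions of continuous E2, against 78.3% in the other host genes, a difference of 7.62 points (1.06 to 13.2). At the length limit, the shortest host gene was Tspear with 201 kb, which had 1 lost region. Atp9b, of 199.9 kb and so just outside the rule, had a region called in all lists. The region nearest to a gene boundary, 1028.5 bases from it in Lrba, was kept, with calls in continuous E2 and at 40, 72 and 120 h. The nearest excluded one, 935 bases from a boundary in Arhgap26, was called up to 40 h.

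Kept regions lay nearer the 5′ side of their genes than lost ones. Of 466 lost regions in genes of known strand, 237 lay in the first 50% of the gene, or 50.9%, against 83 of 116 kept ones, or 71.6%. The difference was -20.7 points (-29.4 to -10.8). Without regions that hold a listed start it was -16.9 points (-27.1 to -5.47), with 49.8% of lost and 66.7% of kept regions in that part. For the first 25% of the gene the difference was -12.0 points (-21.9 to -2.36), and without start regions -3.15 points with an interval that included 0 (-14.3 to 6.78).

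**Figure D4:**
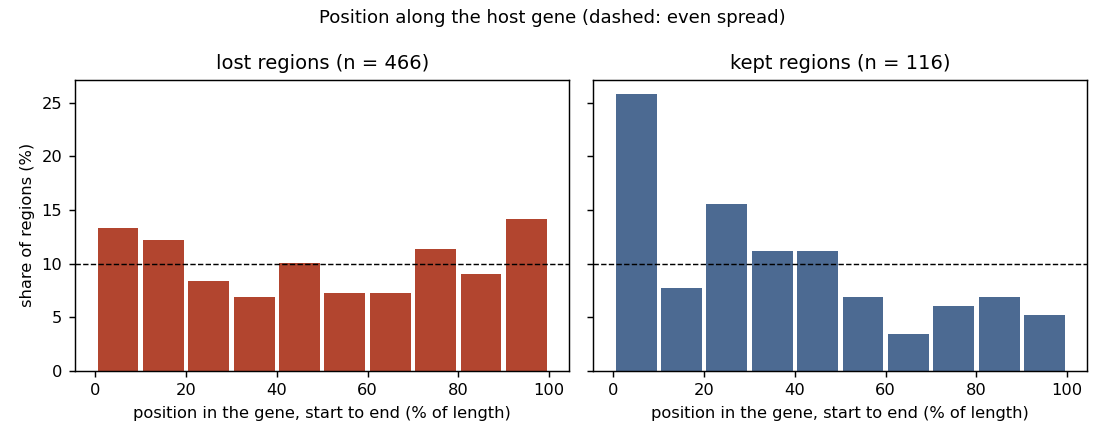
Position of lost and kept inner regions along the host gene, from its start at 0 to its end at 100% of its length, for genes of known strand, as the share of each class per 10% of gene length. The dashed line marks an even spread. Of lost regions 50.9% lay in the first 50% of the gene, and of kept regions 71.6%.

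Most genes with several inner regions lost all of them, and many had lost and kept ones. These counts are to be read beside the 80.2% lost among all inner regions of continuous E2. Of the 198 genes with 2 or more inner regions called in continuous E2, 113 had lost all of them at 120 h, 5 had kept all and 80 had both kinds. Neighbouring pairs of such regions within 10 kb of each other numbered 43, of which 29 were both lost, 0 both kept and 14 mixed. Of 123 pairs 10 to 50 kb apart, 90 were both lost, 4 both kept and 29 mixed. Of 189 pairs over 50 kb apart, 124 were both lost, 6 both kept and 59 mixed. Pairs were of equal class in 67.4%, 76.4% and 68.8% of cases, from the nearest to the farthest. With so high a lost share, most pairs are of equal class without any link between neighbours, and a link was not tested. In 40 genes at least 1 region was lost and at least 1 gained. The median distance between neighbours was 51.9 kb.

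The outer start of the host gene was compared with its inner regions. A region within 1000 bases of the annotated gene start was called in 68 of 344 host genes at 120 h and in 105 in continuous E2, with 91, 85, 83 and 80 after 24, 40, 56 and 72 h. Of the 105, 64 were also called at 120 h, or 61.0% (51.4 to 69.7). In the same genes, 39 of 179 inner regions of continuous E2 were called at 120 h, or 21.8% (16.4 to 28.4). Over all 6665 regions at gene starts or ends called in continuous E2, 4739 were called at 120 h and 28.9% were absent. That count is of regions and not of genes. So the start regions of these host genes were kept less often than gene boundaries of the whole series. Where the start region was kept, 20 of 98 inner regions were kept, and where it was lost, 19 of 81. In 38 of 56 genes with a kept start region every inner region of continuous E2 was lost, where 80.2% of all such inner regions were lost. The start region of Fry, a regulator of the cytoskeleton, was called in all 6 lists while its 4 inner regions of continuous E2 were lost. That of Agap1, a regulator of Arf GTPases, was absent at 120 h, and so were its 4 inner regions.

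After add-back, lost inner regions were called less often the longer E2 had been away. The shares were 56.8% at 24 h (52.9 to 60.7), 33.3% at 40 h, 16.3% at 56 h and 13.5% at 72 h (11.0 to 16.5). Over all lost regions of the series they were 63.2%, 42.5%, 27% and 26.9%. The difference between 72 and 24 h was -43.3 points (-47.9 to -38.4), and that between 72 and 56 h was -2.80 points (-6.82 to 1.22). The lists score the same regions and these intervals ignore the pairing. They therefore do not decide whether 72 and 56 h differed. Gained inner regions were called in 12.8%, 16.3%, 23.3% and 43.0%, against 30.5%, 39.7%, 47.6% and 64.1% of all gained regions. Their difference between 72 and 24 h was 30.2 points (17.0 to 42.1), of which 19.8 points (5.70 to 32.8) lay between 72 and 56 h. Pairing was ignored in these intervals too. Kept inner regions were called in 88.0%, 82.7%, 76.7% and 86.7%, against 92.8%, 92%, 91.3% and 94.5% of all kept regions.

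**Figure D5:**
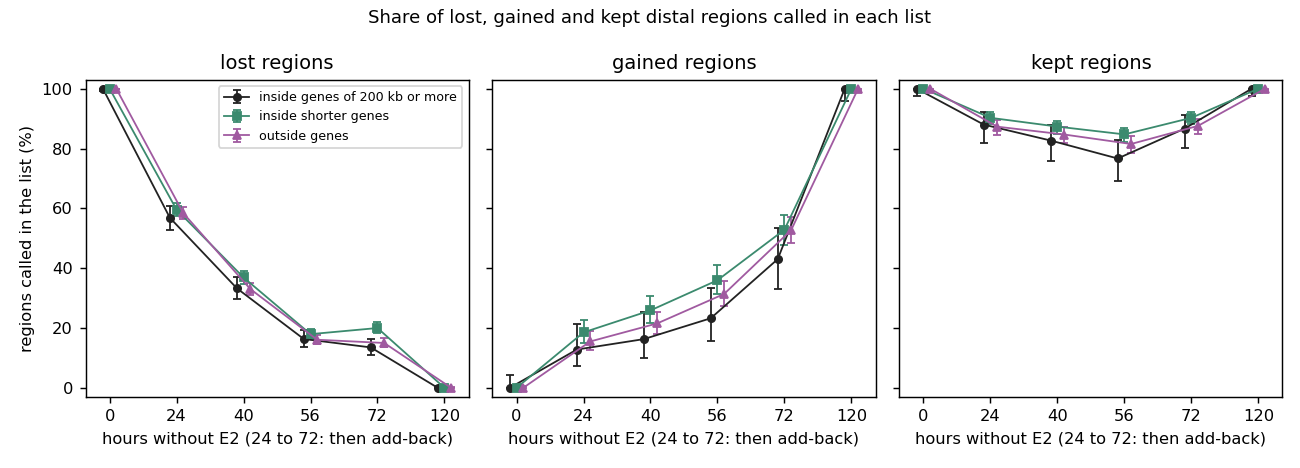
Share of lost, gained and kept regions called in each list, for inner regions of genes of 200 kb or more, regions inside shorter genes and regions outside genes, all over 1000 bases from gene boundaries. Bars are 95% Wilson intervals, the lists are spaced evenly on the x axis, and the values at 0 and 120 h are set by how the classes are defined. The lost inner regions stood at 56.8% at 24 h and 13.5% at 72 h.

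Of the 693 lost or gained inner regions, 622 changed call a single time when the lists were ordered by withdrawal. That was 89.8% (87.3 to 91.8), against 84.7% of all changed regions. The share was 89.4% outside genes, 87.0% in shorter genes and 76.0% at gene boundaries, so it was not particular to inner regions. The most frequent pattern was a call in continuous E2 alone, in 231 inner regions, or 24.3%, where 12.3% of all regions had it. A further 144 were called up to 24 h, or 15.1% against 8.70% of all regions, and 92 up to 40 h, or 9.66% against 5.53%. Calls up to 56 h were seen in 30, or 3.15% against 1.91%, and up to 72 h in 49, or 5.15% against 6.59%. Of the gained ones, 42 were called at 120 h alone, or 4.41% of inner regions against 2.86% of all, 19 from 72 h on, 5 from 56 h, 4 from 40 h and 6 from 24 h. Calls in all 6 lists were seen in 99 inner regions, or 10.4%, where 32.8% of all regions had them.

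The 109 regions of add-back lists alone were mostly called once. Of these, 75 were in 1 list, 18 in 2, 10 in 3 and 6 in all 4. The 24 h list alone held 38 of them and the 72 h list alone 23. The whole series held 1396 such regions, with 364 in the 24 h list alone and 207 in the 72 h list alone. A further 97 were in the 40 h list alone and 87 in the 56 h list alone. Regions of add-back lists alone made up 11.4% of inner regions, 8.71% of all regions and 11.3% of those outside genes. The widest of all inner regions was among the 109, in Gse1, with 2350 bases at 24 h and no call elsewhere (chr8:120570528-120572877). Another in Gse1 was called at 56 h alone with 1663 bases and held a listed start. That in Ak5, an adenylate kinase, was called at 24 and 40 h.

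Inner regions narrowed with withdrawal, as did regions in shorter genes, outside genes and at gene boundaries. Their median width was 686 bases in continuous E2, then 630, 562, 497 and 469 in the add-back lists and 425.5 at 120 h. In the 99 called in every list it was 843, 750, 658, 552, 547 and 538 bases, so the same regions narrowed too. Over the same span the median was 509 bases at 120 h and 733 in continuous E2 inside shorter genes, 442 and 671 outside genes, and 625 and 955 at gene boundaries. Gained inner regions were narrow, with a median of 377 bases at 120 h, against 477.5 for kept ones in the same list. Narrower peaks can follow from fewer reads as well as from less open DNA, and with no depth in the files these cannot be told apart.

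Set against the rest of the series, the high lost share was shared with other regions far from gene boundaries. Regions inside shorter genes lost 68.3% (1906 of 2790), so that inner regions stood 11.9 points higher (8.43 to 15.1). Regions outside protein-coding genes lost 75.4% (2221 of 2946), with inner regions 4.79 points higher (1.44 to 7.91). Inner regions lie farther from boundaries, at a median distance of 70927.5 bases. Among regions 10000 to 50000 bases away, the lost share was 79.5% for inner regions and 75.3% in shorter genes, a difference of 4.22 points with an interval that included 0 (-2.27 to 9.78). Beyond 50000 bases the shares were 81.7% and 81.8%. At 1000 to 10000 bases they were 73.5% for inner regions (61 of 83) and 60.8% in shorter genes (863 of 1420), a difference of 12.7 points (2.04 to 21.4). With start regions left out, inner regions stood 4.71 points higher than those of shorter genes (1.26 to 7.92). They stood 6.22 points higher than those outside genes (2.85 to 9.31).

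Against regions outside genes, the difference was 0.49 points at 1000 to 10000 bases (-10.3 to 9.39), 2.73 points at 10000 to 50000 bases (-3.73 to 8.26) and 6.11 points beyond 50000 bases (1.52 to 10.4). In the narrowest width class, up to 513 bases in continuous E2, inner regions and those of shorter genes were lost in 83.7% and 84.0%. In the widest, above 925 bases, the shares were 75.6% and 54.2%, a difference of 21.4 points (14.2 to 27.8). The classes between gave 10.4 (3.61 to 16.1) and 11.6 points (3.84 to 18.3). From the narrowest class to the widest, differences from regions outside genes were 1.40 (-4.82 to 6.65), 7.57 (1.01 to 13.0), 4.05 (-3.55 to 10.7) and 7.76 points (0.46 to 14.4). Start regions were not left out of the width classes. In add-back lists, lost inner regions were called less often than those of shorter genes at 72 h, a difference of -6.48 points (-9.59 to -3.06), and the intervals at 24, 40 and 56 h included 0. At 56 h the difference was -12.7 points for gained regions (-21.9 to -1.69) and -8.06 points for kept ones (-15.8 to -1.51), and at the other times their intervals included 0. None of the 12 differences in add-back calls from regions outside genes had an interval that excluded 0.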

How the data were processed

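The 12 ATAC-seq libraries fall into 6 groups, and the labels name a single peak list for both libraries of a group. The deposited lists give peak positions only, without a score or count. The submitters' processing notes name BWA, MACS2 2.0 and STAR 2.5 without a role, and give mm9 as the build. Against GRCm38 genes, 50.6% to 68.0% of peaks were at most 1000 bases from a protein-coding gene start or end, against 4.65% to 5.00% after a shift of 500000 bases, so GRCm38 was used. Read depth is unknown.

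Exact duplicate rows (115 to 2530 per list) and intervals over 10000 bases (1 to 16) were dropped, and overlapping rows merged. A list called a region where they shared 1 base or more. Gene positions came from the RefSeq table of GRCm38.p6, and starts, strands and sequences from its promoter table of 32851 windows, which does not hold every gene. A region in several genes was given to the longest. No genome sequence was used, so exons and introns were not told apart.

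The inner regions, gene lists and comparisons were chosen with earlier results of these data known. Genes were named by rule: the 15 with the most inner regions, up to 4 per list, the 5 with the most lost, gained or kept regions, the 3 widest regions per class, the 5 longest host genes and those at the length limit, and beside these Lrba at the distance limit. Of these, 1 gene is not reported here. Genes outside the rule (Agap1, Ankrd44, Chst11, Fhit, Fry, Hdac4, Kcnq1, Rsrc1 and Stag1) were chosen after their values were seen. The split by listed start, and the distance classes, were also chosen after seeing the data. The functions for merging, overlap, classes, host genes and intervals were tested on simulated data with known answers. Python 3.11.15, numpy 2.4.6, pandas 2.3.3, scipy 1.17.1 and matplotlib 3.10.9 were used.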

Additional observations from a re-analysis of the deposited data

How the results depend on the processing

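No paired analysis was possible because both libraries of a group were deposited as 1 list. Leaving out a library was likewise impossible. Motifs in whole regions were not run. Of 131 recomputed values over 15 settings, 108 stayed near the main value and 23 moved beyond. Staying meant inside the interval of the main value, or within 1.5 times of it for the number of regions. Of the differences, 0 changed direction. Shares and numbers of regions cannot be negative, so for them a change of direction was not possible. The cause of the moves was not tested except where the construction of the setting fixes it. The lost share of 80.2% was 84.7% under 50% reciprocal overlap, 83.5% for wide peaks, those not below their list's median width, and 76.2% for lists cut to equal length by width. Equal length also gave 579 regions, a gained share of 67.8%, 16.2 points for gained calls between 72 and 24 h and 85.9% single switches, and lists of equal length bring the lost and gained shares together by construction. The excess of 11.9 points over shorter genes was 19.1 points at equal length, 15.3 for wide peaks, 6.17 and 4.88 beyond 5000 and 10000 bases from boundaries, 4.22 at 10000 to 50000 bases and 4.71 without start regions, the last 2 chosen after seeing the data. The excess over regions outside genes was 1.38 points for wide peaks (-4.22 to 6.26). At a gene length of 100 kb it was 2.49 (-0.15 to 5.06), and at 10000 to 50000 bases 2.73 (-3.73 to 8.26). These intervals all included 0. In the other settings of that excess the interval excluded 0. The values there ran from 3.73 points under reciprocal overlap (0.66 to 6.53) to 6.81 at a gene length of 300 kb (2.73 to 10.4). The number of regions was 1905 at a gene length of 100 kb, 559 at 300 kb and 327 for wide peaks. Genes with a boundary region numbered 19.9% at 120 h and 31.0% in continuous E2. They were 23.9% and 35.7% at 100 kb, 15.6% and 25.8% at 300 kb, and at 120 h 13.3% for wide peaks and 14.8% under reciprocal overlap. The difference by listed start stayed between 24.4 and 37.6 points in all its settings. That with starts up to 500 bases outside the region tests little, as it adds 1 region.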
